A study of Mus musculus with 6 samples.

Results

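The 10 genes described here encode basement membrane proteins and were followed in left ventricles of mice with and without NCoR1 in cardiomyocytes: the collagen IV genes Col4a1 and Col4a2, the laminin chain genes Lama2, Lama4, Lamb1, Lamb2 and Lamc1, the nidogen genes Nid1 and Nid2, and Hspg2, which encodes perlecan. They were taken by symbol from the all-gene count table, which holds 17121 genes, and all 10 were found and all 10 had enough reads to be tested. The samples came from 3 littermate controls (LC) and 3 mice lacking NCoR1 in cardiomyocytes (CMNKO), all on a C57BL/6 background (C57BL6/J in the methods) and 2 months old, with 1 library per mouse. CMNKO mice carry floxed NCoR1 and a Cre transgene driven by the αMHC promoter, so that deletion is limited to cardiomyocytes. The alleles of the LC mice, and whether they carried the Cre transgene, are not stated in the labels. Mice are named by the numbers in the labels (LC 15, 25 and 26, and CMNKO 16, 17 and 18).

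The basement membrane is a thin sheet of extracellular matrix that surrounds each cardiomyocyte and underlies the endothelium of every vessel. Laminins are trimers of an α, a β and a γ chain that assemble on the cell surface and bind integrins and dystroglycan, while collagen IV forms a second network that gives the sheet its strength. Nidogens and the heparan sulfate proteoglycan perlecan join the networks. Endothelial cells, pericytes, smooth muscle cells, fibroblasts and cardiomyocytes all make some of these proteins, so that a ventricle's RNA mixes several sources.

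Col4a1 and Col4a2 lie head to head on mouse chromosome 8, and their start regions are shown because the ratio of their counts was nearly the same in every library, as given further on. The windows run from 250 bases before to 50 bases after each start in RefSeq (build GRCm38.p6), Col4a1 on the minus strand at chr8:11312777-11313076 and Col4a2 on the plus strand at chr8:11312555-11312854. Capitals mark the 78 bases that both windows share, each read 5′ to 3′ on its own strand, so that the capitals of one are the reverse complement of the other.
Col4a1: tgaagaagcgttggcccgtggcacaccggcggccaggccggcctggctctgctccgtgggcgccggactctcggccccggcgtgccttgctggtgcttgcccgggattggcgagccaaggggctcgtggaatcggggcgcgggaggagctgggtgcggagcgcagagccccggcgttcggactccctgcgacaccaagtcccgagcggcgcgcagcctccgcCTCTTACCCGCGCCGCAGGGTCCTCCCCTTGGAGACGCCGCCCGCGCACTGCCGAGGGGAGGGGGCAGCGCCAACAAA
Col4a2: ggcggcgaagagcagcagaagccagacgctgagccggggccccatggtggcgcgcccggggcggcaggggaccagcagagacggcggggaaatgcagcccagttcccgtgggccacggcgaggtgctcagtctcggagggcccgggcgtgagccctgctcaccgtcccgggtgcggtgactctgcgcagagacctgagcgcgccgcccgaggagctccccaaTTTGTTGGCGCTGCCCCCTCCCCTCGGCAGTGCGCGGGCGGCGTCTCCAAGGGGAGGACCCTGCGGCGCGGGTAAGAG
In these windows the start of Col4a1 lay 21 bases inside the transcribed side of Col4a2, and the RefSeq models of the genes overlapped by 85 bases. The sources used here do not say whether the counting used strand, so that reads within that overlap cannot be assigned to one gene with certainty. It is short against transcripts of 6.615 kb and 6.45 kb.

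Windows of this kind were at hand for 7 of the 10 genes, all except Lama4, Lamc1 and Nid2. Short motifs were searched on both strands, and no match overlapped a match of another motif. The GC box GGGCGG, to which Sp1-type factors bind, was in 6 of the 7 windows, against 35.7% of 32851 mouse windows of the same length. Col4a1 held 1 match and Col4a2 held 3, and the 1 match within the shared capitals is the same site read from either strand. Hspg2 held 5. The CCAAT box was in 4 of 7 windows (Col4a1, Col4a2, Lamb1 and Nid1), against 37.4% of all windows. The TATA box TATAAA (13.6% of all windows), the AP-1 motif TGANTCA (7.81%) and the MEF2 consensus (3.19%) were in none of the 7. The Col4a1 and Col4a2 windows had 74.0% and 73.7% G and C, against a median of 52.7%. A match of letters does not show that a factor binds there.

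Total counts were 6319488 to 8752609 per library, and counts of the 10 genes ranged from 45 (Nid2 in LC 26) to 3158 (Hspg2 in CMNKO 18). Levels are given as CPM, counts scaled to the size of the library after TMM normalization. Ncor1, the deleted gene, had 111, 102 and 90.7 CPM in LC 15, 25 and 26 and 50.5, 51.3 and 42.4 CPM in CMNKO 16, 17 and 18, lower in every CMNKO library. The ventricular light chain genes Myl2 and Myl3 together had 15849 to 20103 CPM in every library, and the atrial genes Myl4 and Myl7 together 1.40 to 5.47 CPM. Libraries LC 25 and LC 26 stood apart. They carry later library numbers in the labels than the other 4, and mitochondrially encoded genes took 36.1% and 32.8% of their counts, where LC 15 had 26.3% and the CMNKO mice 26.3% to 27.9%. In both of them all 10 genes were lower than in LC 15, as were 38.5% of the 13040 genes tested. Library series here means the earlier or the later block of these numbers. The labels name no batch and do not say whether the numbers mark separate preparations. The fold changes are also given from a fit that takes the library series into account (the series term). That fit leaves LC 15 as the only control of its series, and the plot of fitted differences adds the fit without LC 15. Without LC 15 genotype and library series cannot be told apart, and in the fit with genotype only they are partly mixed.

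All 10 genes had higher means in CMNKO mice, by 1.25-fold (Lamb1) to 2.22-fold (Col4a1), where 50.2% of the genes tested had log2 fold changes above 0. The 10 genes together took 0.0788% to 0.145% of the counts in LC libraries and 0.180% to 0.189% in CMNKO libraries. Their fitted log2 fold changes had a median of 0.73 (0.33 to 1.15), against a median of 0.0012 over all 13040 genes tested. In 7 of the 10 genes every CMNKO library lay above every LC library, which was so for 11.2% of the genes tested. LC 25 was the lowest of the 6 libraries in 6 of the 10 genes (19.8% of all genes) and CMNKO 16 the highest in 6 (15.4%). The exceptions to the separation were Lama2, Lamb1 and Lamb2, where LC 15 reached into the range of the CMNKO libraries. None of the 10 passed an adjusted p of 0.05 (quasi-likelihood test of edgeR, Benjamini-Hochberg adjustment over all genes), a threshold that 0.606% of the genes passed in either direction and 0.268% as higher. Nor did any pass it with a fold change above 2, as 0.222% of the genes did. By the same test 8 of the 10 were higher at an unadjusted p under 0.05, against 10.1% of all genes. DESeq2 called 6 of them higher, namely Col4a1, Col4a2, Lama4, Lamc1, Nid1 and Hspg2, against 1.69% of all genes, and limma-voom called 0. In whole-ventricle RNA a higher level cannot be told apart from more cells of a type that makes the transcript.

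**Figure D1:**
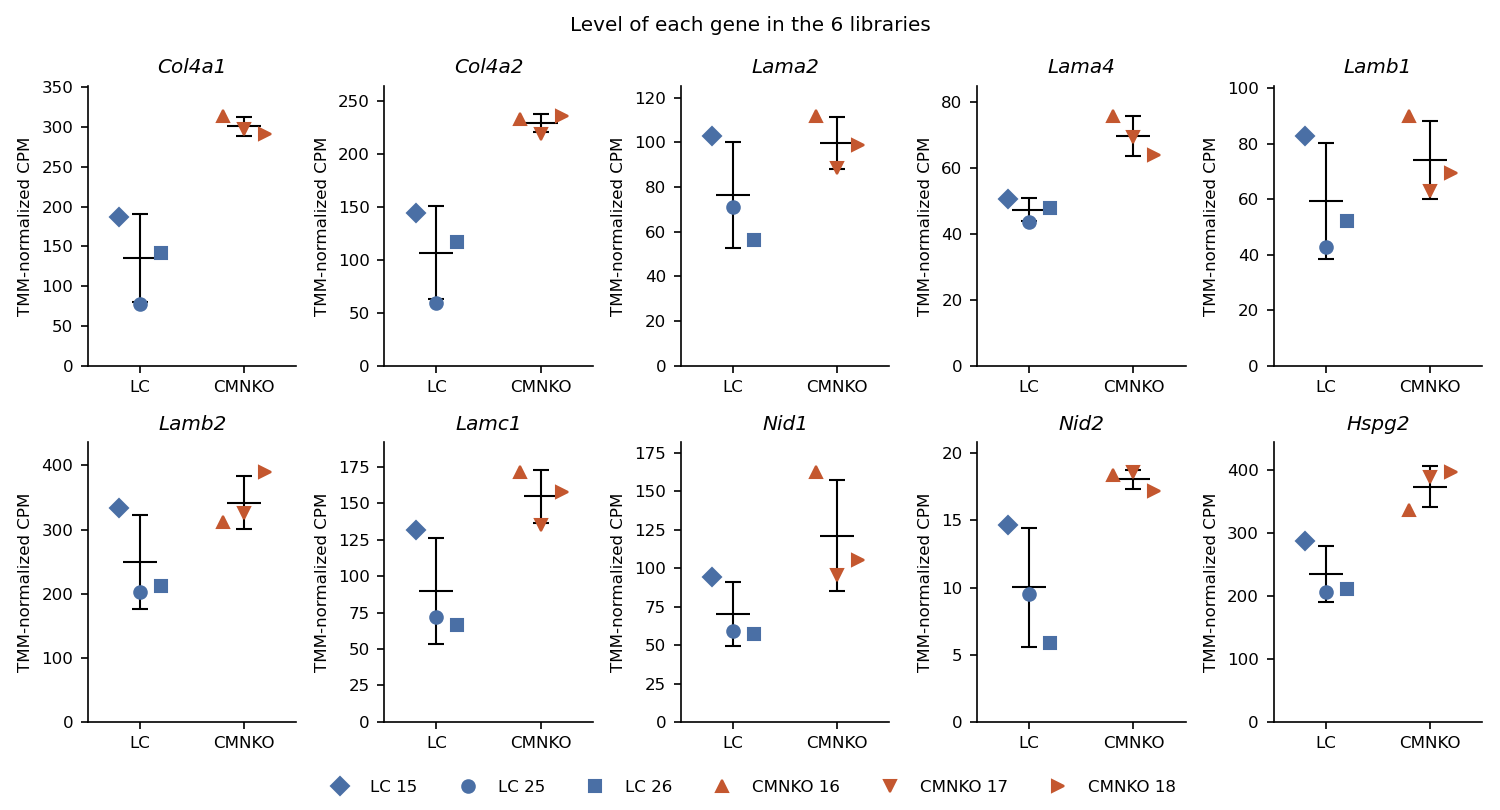
TMM-normalized CPM of each gene (y axis, from 0, 1 panel per gene) in the 3 LC and 3 CMNKO libraries (x axis), with a symbol per library and the mean ± SD of each group in black. In 7 panels the CMNKO libraries all lie above the LC libraries, and in those of Lama2, Lamb1 and Lamb2 the LC 15 diamond lies among them.

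The collagen IV genes showed the widest differences. Col4a1, which encodes the α1 chain, had 187, 77.4 and 142 CPM in LC 15, 25 and 26 and 314, 297 and 292 CPM in CMNKO 16, 17 and 18. The CMNKO libraries lay close together and well above the LC libraries, which differed from each other by more than 2-fold. The group means were 135 ± 55.0 and 300.8 ± 11.6 CPM (SD, n = 3 and 3), with a fitted difference of 1.15 on the log2 scale (standard error, SE, 0.25, edgeR adjusted p = 0.0681). Col4a2, whose α2 chain joins the α1 chain in the collagen IV trimer, had 145, 58.9 and 117 CPM in the LC libraries and 233, 219.7 and 236 CPM in the CMNKO libraries, in the same order of mice. LC 25 was again the lowest and the CMNKO libraries were again apart from the rest. Its log2 fold change was 1.10 (SE 0.25, edgeR adjusted p = 0.0805). Under the series term the values for the pair were 0.69 (SE 0.25) and 0.67 (0.27), with edgeR adjusted p = 0.515 and 0.563, and without LC 15 they were 1.45 and 1.37. Each CMNKO library had more of both transcripts than LC 15 as well, the single mouse on which the comparison within its series rests.

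The ratio of Col4a1 to Col4a2 counts was 1.29, 1.31 and 1.21 in LC 15, 25 and 26 and 1.35, 1.35 and 1.23 in CMNKO 16, 17 and 18. The groups overlapped, and the log2 ratio differed by 0.043 (SE 0.056, n = 3 and 3, two-sided exact permutation test, p = 0.5, adjusted p = 0.6 over 4 ratios, the smallest p that 3 against 3 allows being 0.1). While the level of Col4a1 spanned 77.4 to 314 CPM over the 6 libraries, its ratio to Col4a2 stayed between 1.21 and 1.35.

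Among the laminin α chain genes, Lama4 was apart between the groups and Lama2 was not. Lama4, which encodes the α4 chain of vessel and cardiomyocyte basement membranes, had 50.5, 43.6 and 47.7 CPM in LC 15, 25 and 26 and 75.7, 69.3 and 63.8 CPM in CMNKO 16, 17 and 18. It was the steadiest of the 10 genes in LC mice, where LC 15 lay close to the other 2. The log2 fold change was 0.56 (SE 0.13, edgeR adjusted p = 0.0813), and it was 0.46 under the series term and 0.60 without LC 15. Lama2 encodes the α2 chain of the muscle fibre basement membrane, whose loss causes a muscular dystrophy. Its levels were 103, 71.0 and 56.1 CPM in LC libraries and 112, 88.7 and 98.9 CPM in CMNKO libraries, so that LC 15 exceeded 2 of the 3 CMNKO mice. The log2 fold change of 0.39 (SE 0.20, edgeR adjusted p = 0.313) turned to -0.039 under the series term. The log2 ratio of Lama4 to Lama2 differed by 0.14 (SE 0.24, n = 3 and 3, two-sided exact permutation test, p = 0.6, adjusted p = 0.6).

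Of the β chain genes, Lamb2 was the more abundant and both overlapped between groups. Lamb2, whose β2 chain is also known from the neuromuscular junction and the kidney glomerulus, had 334, 203 and 212 CPM in LC 15, 25 and 26 and 312, 325 and 389 CPM in CMNKO 16, 17 and 18. LC 15 lay above CMNKO 16 and CMNKO 17. The log2 fold change was 0.45 (SE 0.19, edgeR adjusted p = 0.233), and 0.034 under the series term. Lamb1, for the β1 chain, had 82.7, 42.6 and 52.2 CPM in the LC libraries and 89.9, 63.0 and 69.3 CPM in the CMNKO libraries. LC 15 and CMNKO 16 were the highest, 1 from each group. Its log2 fold change of 0.33 (SE 0.23, edgeR adjusted p = 0.436) was the smallest of the 10, and the series term turned it to -0.16. The log2 ratio of Lamb1 to Lamb2 differed by -0.12 (SE 0.23, n = 3 and 3, two-sided exact permutation test, p = 0.6, adjusted p = 0.6).

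Lamc1 encodes the γ1 chain, the partner of all the chains above. It had 132, 71.8 and 66.3 CPM in LC 15, 25 and 26 and 171, 135 and 158 CPM in CMNKO 16, 17 and 18. The groups were apart, though LC 15 and CMNKO 17 nearly met. The log2 fold change was 0.79 (SE 0.23, edgeR adjusted p = 0.129), and only 0.23 under the series term, against 1.16 without LC 15.

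The nidogen genes were higher in CMNKO libraries by similar amounts. Nid1 had 94.1, 59.0 and 57.4 CPM in LC 15, 25 and 26 and 163, 95.9 and 105 CPM in CMNKO 16, 17 and 18. CMNKO 16 stood above the rest, while LC 15 and CMNKO 17 were within 2 CPM of each other. The log2 fold change was 0.79 (SE 0.23, edgeR adjusted p = 0.129). Nid2, the least abundant of the 10, had 94, 59 and 45 counts in the LC libraries and 165, 133 and 137 in the CMNKO libraries, or 14.7, 9.49 and 5.90 CPM and 18.3, 18.6 and 17.2 CPM. Its CMNKO libraries were nearly equal and its LC libraries spread by more than 2-fold. Its log2 fold change was 0.86 (SE 0.26, edgeR adjusted p = 0.140). Under the series term Nid1 and Nid2 had 0.37 and 0.30. The log2 ratio of Nid1 to Nid2 differed by -0.16 (SE 0.31, n = 3 and 3, two-sided exact permutation test, p = 0.5, adjusted p = 0.6).

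Hspg2, for perlecan, whose heparan sulfate chains bind growth factors, had 287, 207 and 212 CPM in LC 15, 25 and 26 and 336, 388 and 397 CPM in CMNKO 16, 17 and 18. The groups were apart, with LC 15 the nearest of the controls. The log2 fold change was 0.67 (SE 0.15, edgeR adjusted p = 0.0805), and 0.38 under the series term. Its transcript is 14.187 kb long with 60.9% G and C, and a correction for GC content lowered its value to 0.47 (edgeR adjusted p = 0.0598).

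**Figure D2:**
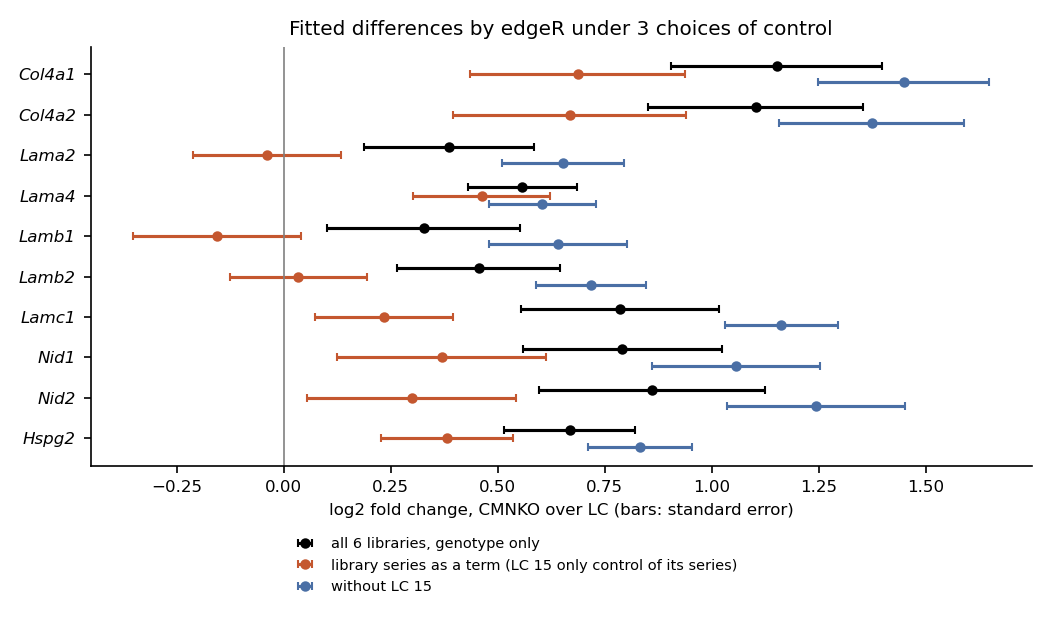
Log2 fold change of CMNKO over LC by edgeR (x axis, bars are standard errors) for the 10 genes (y axis) with all 6 libraries, under the series term and without LC 15. The collagen IV genes lie highest on average, at 1.15 and 1.10 with all libraries, and Lama2 and Lamb1 cross 0 with the series term.

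The genes differed in where LC 15 lay. With this control alone as the reference, the mean of the CMNKO libraries was higher by 0.69 (Col4a1), 0.67 (Col4a2), 0.46 (Lama4), 0.38 (Hspg2), 0.33 (Nid1), 0.30 (Nid2) and 0.23 (Lamc1) on the log2 scale. In these 7 genes every CMNKO library lay above LC 15, which was so for 28.1% of the genes tested. For Lamb2, Lama2 and Lamb1 the same differences were 0.027, -0.046 and -0.17. LC 25 and LC 26 lay below LC 15 by 0.15 on average for Lama4, and by 0.45 (Hspg2) to 0.97 (Nid2) for the other 9 genes. Both sets of differences share LC 15, so that they are not independent of each other. Without LC 15 all 10 genes passed the threshold by edgeR, but so did 2624 of 13495 genes in that fit (11.8% as higher), against 79 of 13040 with all mice.

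**Figure D3:**
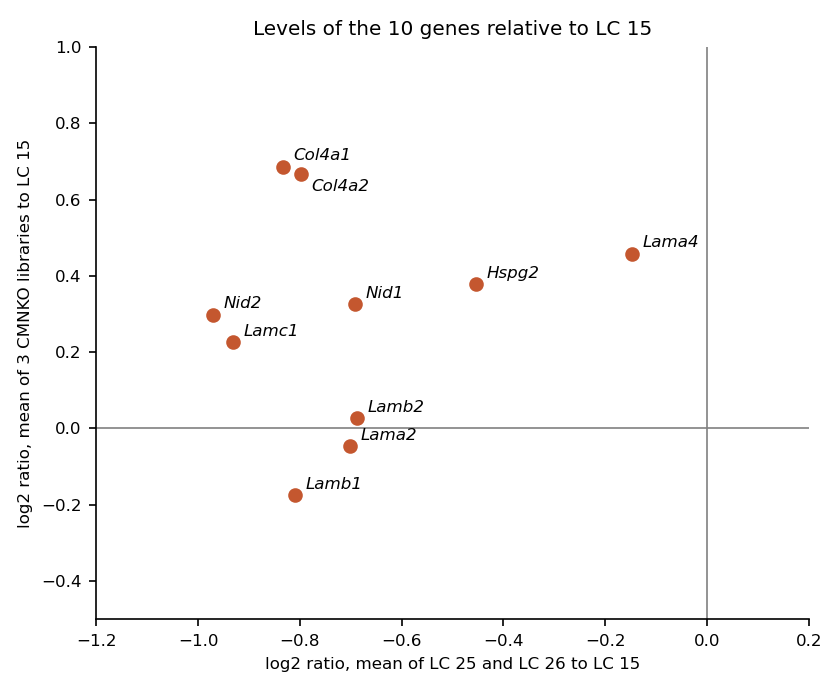
Mean log2 ratio of LC 25 and LC 26 to LC 15 (x axis) and mean log2 ratio of the 3 CMNKO libraries to LC 15 (y axis) for each of the 10 genes. All points lie left of 0, Lama4 nearest to it at -0.15, and Col4a1 and Col4a2 lie highest at 0.69 and 0.67.

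Compared between genes per kb of the longest annotated transcript, Lamb2 was the most abundant of the 10 in every library and Nid2 the least. In LC mice Lamb2 had 44.3 ± 13.0 CPM per kb (SD, n = 3). Col4a1 (20.5 ± 8.32), Col4a2 (16.6 ± 6.79), Hspg2 (16.6 ± 3.16), Lamc1 (11.8 ± 4.76), Nid1 (11.5 ± 3.40), Lamb1 (10.2 ± 3.62), Lama2 (7.96 ± 2.47) and Lama4 (7.82 ± 0.577) followed in CPM per kb. These SDs are between mice and do not give the order within a library. Per kb, Col4a1 was 1.26, 1.28 and 1.18 times Col4a2 in LC 15, 25 and 26. Nid2 was at 2.05 ± 0.903 CPM per kb, apart from Lama4. In CMNKO mice the values were 60.8 ± 7.39 CPM per kb for Lamb2, 45.5 ± 1.75 for Col4a1, 35.6 ± 1.37 for Col4a2 and 26.3 ± 2.30 for Hspg2. The libraries of these neighbours did not overlap in CMNKO mice, nor did those of Lamb2 and Col4a1 in LC mice.

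Summed over all chain genes in the table, the laminin α chains, per kb, were close between groups. The γ chains were higher in CMNKO libraries, though LC 15 lay near CMNKO 17. Lama5, whose α5 chain lies in vessel basement membranes and which is not one of the 10 genes, had 138 ± 7.94 CPM in LC and 95.4 ± 11.9 CPM in CMNKO hearts (SD, n = 3 and 3), with a log2 fold change of -0.53 (SE 0.13, edgeR adjusted p = 0.0915). Its values did not overlap between groups, in the direction opposite to the 10 genes, and the series term left it at -0.46. Of the summed α chain level per kb it held 37.5% to 46.6% in LC libraries and 23.5% to 31.1% in CMNKO libraries. Lama4 held 26.1% to 30.5% and 34.5% to 39.4%, also without overlap, and Lama2 held 22.6% to 34.8% and 31.8% to 36.5%, with overlap. The sum of the α chains was 28.1 ± 2.47 CPM per kb in LC mice and 30.5 ± 1.40 in CMNKO mice, that of the β chains 58.3 ± 17.5 and 75.6 ± 7.03, and that of the γ chains 12.8 ± 4.57 and 21.6 ± 2.40. Lamb2 and Lamc1 held 75.7% to 82.7% of the β chain and 88.4% to 95.8% of the γ chain level per kb in every library. These shares were chosen after the values had been seen and were not tested.

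**Figure D4:**
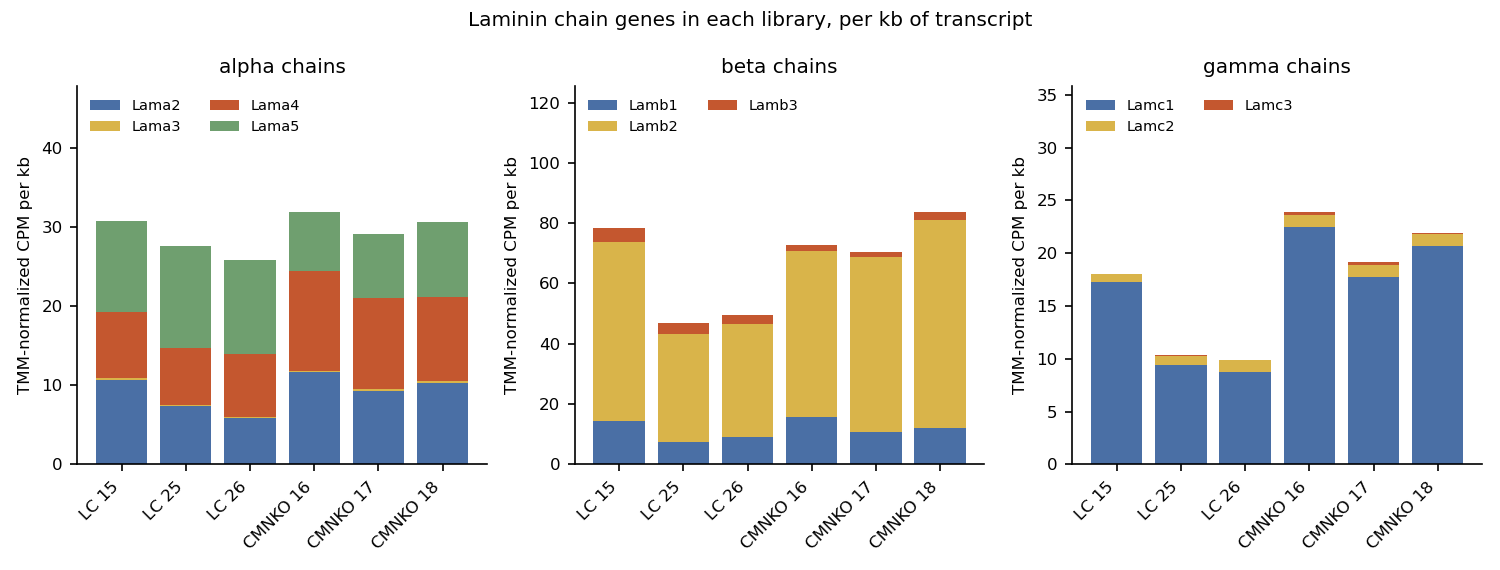
TMM-normalized CPM per kb of transcript (y axis, stacked from 0) of the laminin α, β and γ chain genes in each of the 6 libraries (x axis). The Lama5 segment is thinner and the Lama4 segment thicker in each CMNKO library than in each LC library, and the γ panel is nearly all Lamc1.

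Other genes of the basement membrane were read from 5 lists, 49 of whose 50 genes are in the table (1 of them, Colgalt1, under its older symbol Glt25d1) and 45 of which were tested. None rose and none fell at an adjusted p of 0.05 in edgeR, which 0.606% of all genes passed. At an unadjusted p under 0.05 in edgeR 17 were higher and 4 lower. Of all 13040 genes 2463 had such a p in either direction, 1316 (10.1%) of them as higher. DESeq2 called 4 higher and 2 lower, where it called 367 of all genes, 220 (1.69%) of them as higher. The calls by limma-voom were 1 higher (45 of 13040 genes) and 0 lower. Without LC 15 edgeR called 18 higher and 4 lower, where it called 2624 of 13495 genes, 1589 (11.8%) of them as higher. All 3 tested genes of the other collagen IV chains were higher in every CMNKO library than in every LC library, as were 11.2% of all genes. Col4a4 (log2 fold change 0.94, edgeR adjusted p = 0.129) was at 3.73 and 7.07 CPM and Col4a5 (0.42, edgeR adjusted p = 0.149) at 27.8 and 37.3 CPM in LC and CMNKO mice. Of the 4 other laminin chain genes tested 2 were above 0, and Lama5 and Lamb3 were below. Lamb3, a β chain of epithelial laminin, had 23.1, 17.4 and 13.5 CPM in LC 15, 25 and 26 and 8.78, 9.22 and 12.2 CPM in CMNKO 16, 17 and 18 (-0.83 on the log2 scale, SE 0.22, edgeR adjusted p = 0.105).

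Of 12 other basement membrane proteins tested, 9 had log2 fold changes above 0 (50.2% of all genes), with a median of 0.71. The largest was that of Col15a1, for the collagen XV of microvessels and muscle (22.8 ± 9.88 and 56.1 ± 10.1 CPM, log2 fold change 1.30, edgeR adjusted p = 0.0572). Sparc, a matrix protein that binds collagen IV, had 271 ± 53.1 and 480.2 ± 78.7 CPM (0.83, edgeR adjusted p = 0.0594). The series term lowered them to 0.76 and 0.55.
The genes that fold, modify and export collagen IV had smaller fold changes, with a median of 0.21 over 12 tested genes, against 1.15 and 1.10 for Col4a1 and Col4a2. The lysyl hydroxylase Plod1 (0.58, edgeR adjusted p = 0.160) and the lysyl oxidase Loxl2 (0.70, edgeR adjusted p = 0.168) had the smallest p. The 14 tested receptor genes had a median of 0.12, and Sgcb, a sarcoglycan gene of the dystrophin complex in muscle, was lower in every CMNKO library (-0.37, edgeR adjusted p = 0.162). Under the series term the medians were 0.55 for the other collagen IV chains, -0.00021 for the other laminin chains, 0.25 for the other basement membrane proteins and 0.0086 for the folding and modification genes, and that of the receptor genes turned to -0.17.

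**Figure D5:**
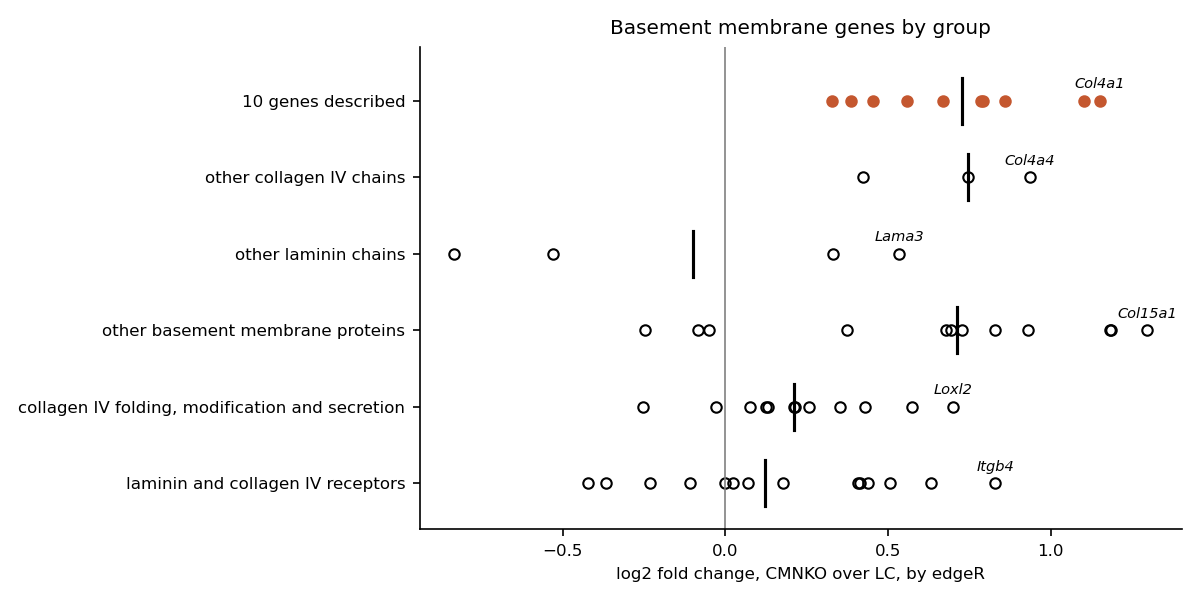
Log2 fold change of CMNKO over LC by edgeR (x axis) of the 10 genes (filled) and of the tested genes of 5 further lists (open), with the median of each as a bar and the highest gene named. The medians are 0.73 for the 10 genes and 0.75, -0.10, 0.71, 0.21 and 0.12 for the lists from top to bottom.

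Summed markers of endothelial cells, pericytes and smooth muscle cells were higher in every CMNKO library than in every LC library, while those of fibroblasts, macrophages and cardiomyocytes overlapped between groups. The 8 endothelial markers summed to 584 to 732 CPM in LC and 835 to 949 CPM in CMNKO libraries, with a median log2 fold change of 0.49. All 8 were above 0 (50.2% of all genes tested) and 0 were past the threshold by edgeR. At an unadjusted p under 0.05 in edgeR 5 were higher (10.1% of all genes). DESeq2 called 4 higher (1.69% of all genes) and limma-voom 0. Kdr (0.55) and Tie1 (0.59) had the smallest p, while Egfl7 (0.079) and Emcn (0.047) overlapped between groups. The 6 pericyte markers summed to 232 to 333 and 358 to 374 CPM (median 0.54), the 4 smooth muscle markers to 115 to 219 and 462 to 800.1 CPM (median 0.96), the 8 fibroblast markers to 555 to 683 and 646 to 1068 CPM (median 0.57), and the 6 macrophage markers to 110.0 to 163 and 157 to 231 CPM (median 0.44). Under the series term these medians were 0.31 (endothelial), 0.21 (pericyte), 0.14 (smooth muscle), 0.36 (fibroblast) and 0.23 (macrophage). Of the smooth muscle markers only Acta2 was apart between groups, while Tagln, Myh11 and Cnn1 overlapped. Acta2, the smooth muscle actin (127 ± 51.6 and 507 ± 167 CPM, log2 fold change 2.00, edgeR adjusted p = 0.0195), was the one marker that passed and made up most of the smooth muscle sum. It was at 1.88 under the series term, where it did not pass (edgeR adjusted p = 0.181). The 7 cardiomyocyte markers summed to 52314 to 69308 and 57289 to 67395 CPM, with a median of -0.12 and of -0.15 under the series term. The sum hides differences between them, as 3 were lower in every CMNKO library and 1 was higher. These were Tnnt2 (-0.58, edgeR adjusted p = 0.0958), Tnni3 (-0.41) and Pln (-0.41), and Ryr2 (0.20), and 0 passed the threshold by edgeR. The 5 adipocyte markers had at most 0.780 CPM together in an LC library, where Adipoq, Plin1 and Retn were at 0, and 0.753 to 12.005 CPM in CMNKO libraries. The mesothelial markers Msln, Upk1b and Upk3b are not among the genes counted, so that they could not be analysed. In both LC 25 and LC 26 the endothelial, pericyte, smooth muscle, fibroblast and macrophage sums were lower than in LC 15, as the 10 genes were.

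Set against the summed endothelial marker counts of the same library, the genes parted. Col4a1 was higher in CMNKO mice by 0.72 and Col4a2 by 0.68 on the log2 scale, with every CMNKO library above every LC library. The share of all genes for which this holds on the same scale was not computed. The other 8 genes were between -0.16 (Lamb1) and 0.42 (Nid2), and their groups overlapped. Against the fibroblast markers the 10 genes had a median difference of 0.30, against the pericyte markers 0.29 and against the smooth muscle markers, which Acta2 dominates, -1.01. Col4a1 and Col4a2 were at 0.81 and 0.77 against the fibroblast, 0.79 and 0.75 against the pericyte and -0.50 and -0.54 against the smooth muscle markers. Every CMNKO library lay above every LC library for 2 of the 10 genes against the fibroblast markers. Against the pericyte markers this was so for 3, Nid2 being added to the pair, and against the smooth muscle markers for 0. These ratios were formed after the values had been seen and are given without a test, and the part of each cell type in the differences was not tested.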

How the data were processed

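RNA-sequencing of left ventricles of 3 LC and 3 CMNKO mice was used. Ventricles kept in RNAlater were extracted with TRIzol, and TruSeq libraries were sequenced. Reads were aligned by the authors to mm8, the build named in the submitters' notes. What the authors deposited are raw counts for each gene symbol in each mouse. The sources used here name neither the aligner nor the counting step. Deposited columns of the authors' own group means, fold changes and FDR, and a subset table of their calls, were not used.

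The analysis was run with edgeR 4.0.16 (R 4.3.3). The function filterByExpr kept 13040 of 17121 genes, libraries were scaled by TMM, quasi-likelihood models were fitted with genotype as the only term, and p-values were adjusted over all genes tested by the Benjamini-Hochberg method at 0.05. Fold changes come from this fit, with n = 3 and 3. Each library is a separate mouse, and the LC mice fall into both library series, so that p-values measure the spread between mice and between series together. Ratios of counts were compared by exact permutation, where 3 against 3 cannot give a p under 0.1. No ratio could therefore pass 0.05, and these tests cannot show that a ratio is unchanged. Alternatives were DESeq2 1.42.0, limma-voom (limma 3.58.1), other scalings and filters, the library series, corrections for GC content and length (12716 genes had a value, from GENCODE vM21) and each mouse left out. On simulated data (13040 genes, 3 against 3) the edgeR procedure found 19.4% of 1.5-fold, 70.1% of 2-fold and 97.0% of 4-fold changes, and 9.49% of its calls were false. List genes were matched by symbol or, for Colgalt1 and Adgre1, by gene ID to an older symbol. The depth (6319488 to 8752609 counts) sets the counting error. The text names all 10 members, Ncor1 and the 5 genes with the nearest profile. Of the lists it names the genes past the threshold, or else the 2 with the smallest p in a list. Myl2, Myl3, Myl4, Myl7 and the adipocyte and mesothelial genes are named as checks. Egfl7, Emcn, Tagln, Myh11 and Cnn1 are named as markers whose groups overlapped. Pln and Ryr2 are named as cardiomyocyte markers whose groups were apart. Some of the genes that these rules take are left out of the text. Members and lists were chosen with earlier results of these data known. Promoter windows came from RefSeq (GRCm38.p6) and are not on the build of the counts.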

Additional observations from a re-analysis of the deposited data

How the results depend on the processing

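All alternatives were set with the design. Genes past the threshold numbered 79, against 44 with library totals only, 128 with upper-quartile scaling, 367 by DESeq2, 170 when corrected for GC content, 22 under the series term and 0 to 2624 with 1 mouse left out (0 by edgeR without CMNKO 16 or CMNKO 17, where 1829 and 1675 had an unadjusted p under 0.05, 11 without CMNKO 18, 36 without LC 25, 25 without LC 26 and 2624 without LC 15). With library totals only the all-gene median was 0.12 and 24 of 44 calls were higher, against 35 of 79. Of the 10 basement membrane genes, 0 passed by edgeR, 1 with upper-quartile scaling (Col4a1), 6 by DESeq2 and 0 to 10 with 1 mouse left out (10 without LC 15). Their median log2 fold change of 0.73 was 0.33 under the series term and 0.59 to 0.94 with 1 mouse left out. Of the 10, 7 to 10 had the groups apart with 1 mouse left out. With the correction for transcript length 5 did, but that count may have applied the correction more than once. Over 170 values for single genes, 151 stayed on their side of the threshold and 17 came past it, while Lama2 (-0.039) and Lamb1 (-0.16) turned sign under the series term. With 1 mouse left out the log2 ratio differences ran from 0.0071 to 0.086 for Col4a1 to Col4a2, -0.049 to 0.34 for Lama4 to Lama2, -0.33 to 0.015 for Lamb1 to Lamb2 and -0.38 to 0.050 for Nid1 to Nid2. No paired analysis was possible because LC and CMNKO mice share no numbers in the labels. The cause of these changes was not tested. At 45 to 165 counts, Nid2 rests on the fewest reads.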

Other observations

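Outside the lists, the 5 tested genes whose log2 CPM profile over the 6 libraries lay nearest to the mean profile of the 10 genes were Wfs1, which encodes wolframin of the endoplasmic reticulum, Papss2 of sulfate donor synthesis, Slc3a2, the heavy chain of amino acid transporters, the small GTPase gene Rhog and the unconventional myosin gene Myo1e. Likeness was measured as the root mean square difference of centred log2 CPM, which was 0.064 for Wfs1 and 0.070 for Myo1e. The 10 genes themselves lay 0.12 (Lamc1) to 0.34 (Col4a2) from their own mean profile, Col4a1 and Col4a2 being the farthest. The group means of Wfs1 were 58.5 (LC) and 101 CPM (CMNKO), with 0.79 on the log2 scale (edgeR adjusted p = 0.0736). The other 4 genes had log2 fold changes of 0.63 to 0.67 and edgeR adjusted p-values of 0.155 to 0.188.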
